A study of Rattus norvegicus with 156 samples.

Results

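Sciatic nerve taken at mid thigh was compared with spinal cord in rats whose spinal nerves had not been ligated, which sets peripheral against central myelinated tissue. The samples were chosen by their titles alone, as the nerve and cord samples of the Naive, Naive+ GPN and Sham groups, and they number 12 of the 52 RNA samples of the series, or 36 of its 156 arrays. Each sample was 1 pool of RNA from 4 to 6 rats, hybridised to the rat U34 arrays A, B and C. Naive rats had no surgery and received saline; Naive+ GPN rats had no surgery and received gabapentin, a drug that binds a calcium channel subunit, at 100 mg/kg once a day for 7 days; Sham rats had the spinal nerves exposed but not tied, and received saline. Tissue was taken 19 to 21 days after surgery, with the cord split along its midline, and the ipsilateral and contralateral side of each treatment gave 6 nerve pools and 6 cord pools that form 6 pairs. There was 1 pool per treatment, tissue and side, and both sides of a treatment may come from the same rats, so the p-values measure the spread between pools. In bulk tissue, fewer cells of a type and less RNA per cell cannot be told apart. The labels name no strain, sex or age.

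Myelin is made by Schwann cells in the nerve and by oligodendrocytes in the cord, and the 2 kinds of glia share some myelin proteins and not others. Each myelinating Schwann cell wraps a single stretch of axon and is enclosed in a basal lamina, whereas oligodendrocytes wrap many axons and have none. The nerve also holds collagen-rich sheaths, fibroblasts, macrophages, mast cells and vessels, while the nuclei and most of the mRNA of its neurons lie outside it, in ganglia and spinal cord. The cord holds neurons with their synapses, astrocytes and microglia.

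Values are probe set signals on a linear scale after quantile normalization within each array type, given as mean ± SD over 6 pools. Differences are nerve minus cord on a log2 scale after addition of a small constant, a pseudocount, so folds understate the change of weak genes. Adjusted p-values come from limma with pairs as a block and the Benjamini-Hochberg method over all 16412 probe sets kept, and a difference was called at an adjusted p below 0.05. Where a gene had several probe sets, the brightest on average stands for it, which gave 8569 genes. Levels are not compared between genes, since each probe set has its own brightness.

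The pools separated by tissue: Pearson correlations of log2 values ran from 0.926 to 0.972 within a tissue and from 0.634 to 0.716 between tissues. The deposited signals were dimmer in nerve, with array medians on array B of 10.8 to 14.7 in nerve and 18.4 to 47.2 in cord. The ranges overlapped slightly on array A (16 to 26.9 in nerve, 26 to 41.3 in cord) and on array C (16.4 to 27 and 25.6 to 45.2). The ratio of the 3′ to the 5′ probe set of GAPDH on array A, which rises as RNA is degraded, was 1.60 to 7.38 in nerve and 1.03 to 1.36 in cord, highest in the Naive ipsilateral nerve pool. For beta-actin this ratio overlapped between tissues on array A (1.73 to 3.66 in nerve, 1.42 to 1.90 in cord), though not on arrays B and C. RNA quality by the GAPDH ratio therefore moved with tissue, and its part in the differences was not tested. In the 3 pairs whose nerve pool had the lowest GAPDH ratio, 6300 probe sets were called, against 9241 in all 6 pairs. Fits with fewer pairs also call fewer probe sets: without the 2 pairs of any 1 treatment, 7403 to 8420 were called. Calls lost in these 3 pairs can therefore not be told apart from the loss of pairs. The 2 Naive nerve pools also stood apart in skeletal muscle signal, given with the muscle genes.

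Of the 16412 probe sets, 9241 differed (56.3%), 4757 of them higher in nerve (29%) and 4484 lower (27.3%). This even split depends on scaling. With the deposited scaling it was 1698 higher and 9825 lower, with a shift of the median by -0.66 on the log2 scale; with median scaling it was 5778 and 3407, and with quantile normalization within tissue, then median scaling, 6101 and 3429, with shifts of 0.14 and 0.15. Small differences are therefore read against these shifts. By gene, 2793 of 8569 were higher in nerve (32.6%) and 2105 lower (24.6%), with a median difference of 0.07. At 4-fold or more, 305 genes were higher in nerve and 298 lower, and by probe set the shares were 3.23% and 3.93%. The nerve and cord pools did not overlap for 36.2% of probe sets, with nerve above cord in 19% and below it in 17.2%.

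The 10 largest differences in each direction set muscle and fat genes of the nerve against neuronal, astrocyte and oligodendrocyte genes of the cord. Higher in nerve were Myh4, Cfd, Ckm, Fabp4, Tnni2, Atp2a1, Tnnt3, Eno3, Myl11 and Acta1, by 6.02 to 7.45 on the log2 scale. Lower in nerve were Nefh, Mobp, Snap25, Aqp4, Sncb, Nefm, Mog, Sst, Slc12a5 and Snhg11, which fell by 5.48 to 7.17. No gene of peripheral myelin is among these 20.

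Periaxin, Prx, is a cytoskeletal adaptor of the Schwann cell that links its membrane to the basal lamina and is needed to keep peripheral myelin stable. Its signal in nerve ran from 2878 through a median of 3695 to 4155, and in cord from 692 through 823 to 946. The lowest nerve pool thus lay above every cord pool. The mean was 3558 ± 513 in nerve and 817 ± 106 in cord (SD, n = 6), a difference of 2.11 (SE 0.12, adjusted p = 1.08e-07, limma), or 4.32-fold. In the 3 brain pools of the same treatments the signal was 7.35 to 29.2, below every cord pool, and in L4 dorsal root ganglion (DRG), where the cell bodies of sensory neurons lie among Schwann and satellite cells, the mean was 1092.

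Pmp22, a tetraspan protein of compact peripheral myelin, held the top rank of array A in all 6 nerve pools, so that quantile normalization gave it the same value of 7325 in each. In cord it ran from 3695 to 4511 with a median of 4170. The difference of 0.83 (SE 0.09, adjusted p = 1.4e-05, limma) is thus limited by the top of the scale; with the deposited scaling it was 0.63 (adjusted p = 0.00966). In brain Pmp22 reached 187 at most. Of its 2 kept probe sets only this one passed the test, and the mean over both was 0.46. Every cord pool was above every brain pool for both Prx and Pmp22. The mean log2 signal of the whole peripheral myelin list was 6.98 to 7.16 in cord and 4.90 to 5.22 in brain. Whether peripheral tissue in the cord pools contributed to this, and so to the size of the differences between nerve and cord, was not tested.

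Of 20 genes listed for peripheral myelin and Schwann cells, 12 were on the arrays with a single gene symbol and all 12 were tested; 9 were higher in nerve and 1 lower, with a median of 1.87. Over all 17 kept probe sets of these genes, and not only the brightest of each, the median was 0.83. The largest difference was in Egr2, the zinc finger factor that switches Schwann cells to myelination. Its signal was 235 to 458 in nerve, with a median of 310, and 26.2 to 56.1 in cord, with a median of 39.9, so the pools did not overlap. The difference was 2.87 (SE 0.12, adjusted p = 1.07e-08). Itgb4, the laminin receptor subunit on the outer Schwann cell surface, was 678 to 1043 in nerve and 115 to 169 in cord (difference 2.63). Scn7a, a sodium-sensing relative of the voltage-gated sodium channels, was 413 to 626 in nerve and 64.6 to 109 in cord (2.59). Cntf, a survival factor that Schwann cells hold in quantity, was 632 to 911 in nerve and 110 to 139 in cord (2.50). For these genes too, every nerve pool lay above every cord pool.

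The exception in the list was Ngfr, the low-affinity neurotrophin receptor p75 of non-myelinating and immature Schwann cells, of some sensory neurons and of motor neurons early in life. It was 83.1 ± 25.5 in nerve and 125 ± 25.5 in cord (SD, n = 6), a log2 difference of -0.59 (adjusted p = 0.00117), with overlapping pools. That call was lost in the 3 pairs with the lowest GAPDH ratio (adjusted p = 0.0754) and with scaling within tissue (adjusted p = 0.0709). Erbb3, a neuregulin receptor subunit, did not pass (0.02), nor did the artemin receptor Gfra3 (0.33).

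The stretches of 250 bases before the start of 2 of these genes are shown because Egr2 was itself higher in nerve, and they hold the core letters GTGGGNG of the EGR family on either strand, printed in capitals. The sequences are from RefSeq (GRCr8), 5′ to 3′ on the gene's strand, for Prx at chr1:91914171-91914420 on the plus strand and for Scn7a at chr3:71846285-71846534 on the minus strand.
Prx: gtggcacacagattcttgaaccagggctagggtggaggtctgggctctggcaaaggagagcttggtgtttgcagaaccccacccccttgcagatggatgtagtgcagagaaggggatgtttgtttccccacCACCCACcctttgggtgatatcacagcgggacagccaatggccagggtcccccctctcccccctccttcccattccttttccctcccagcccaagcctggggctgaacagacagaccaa
Scn7a: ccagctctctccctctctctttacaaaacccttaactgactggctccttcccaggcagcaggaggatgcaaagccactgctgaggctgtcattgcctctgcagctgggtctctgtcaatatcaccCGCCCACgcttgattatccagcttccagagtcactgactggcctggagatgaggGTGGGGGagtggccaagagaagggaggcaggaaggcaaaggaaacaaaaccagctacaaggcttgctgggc
Prx holds 1 match, beginning 119 bases before the start, and Scn7a holds 2, beginning 125 and 71 bases before it. These letters occur in 25.6% of the 33469 promoters of the table, so a match is common. Pmp22, Egr2 and Cntf, also higher in nerve, had no match in the same window, and the central myelin gene Klk6 had 2. A match is a description of letters and not evidence of binding.

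**Figure D1:**
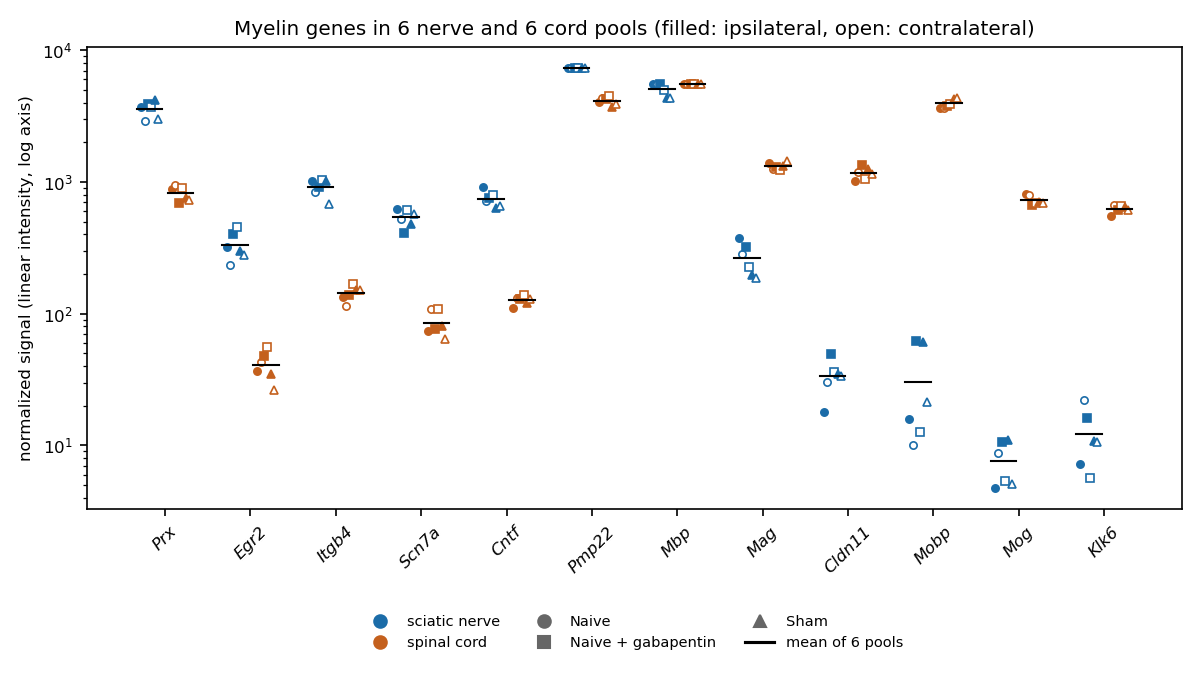
Normalized signal (linear intensity on a log axis) of 12 myelin and Schwann cell genes in 6 nerve pools (blue) and 6 cord pools (orange); symbols give the treatment, filled points are ipsilateral and open points contralateral, and bars are means. Prx to Cntf lie higher in nerve without overlap, Pmp22 and Mbp lie near the top of the scale in both tissues, and Mag to Klk6 lie lower in nerve.

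Myelin genes of oligodendrocytes showed the opposite pattern. Of 19 genes listed for central myelin and oligodendrocytes, 14 were on the arrays and 13 were tested; 11 were lower in nerve and 2 higher, and the median was -3.14. Mobp, a basic protein of compact central myelin, was 10 to 62.3 in nerve with a median of 18.5, and 3655 to 4348 in cord with a median of 3849. Every nerve pool thus lay far below every cord pool. The difference was -7.04 (SE 0.27, adjusted p = 4.75e-09), and all 5 of its kept probe sets were lower in nerve.

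Mog, an immunoglobulin protein of the outermost central myelin layer, was 4.71 to 11.0 in nerve and 672 to 815 in cord (difference -5.84). Klk6, a secreted protease of oligodendrocytes, was 5.67 to 22.2 and 548 to 668 (-5.23). Cldn11, the tight junction protein of central myelin, was 17.8 to 49.1 and 1008 to 1333 (-4.97). Ermn, a cytoskeletal protein of oligodendrocytes, fell by 4.55 in nerve, and Omg, the oligodendrocyte myelin glycoprotein, fell by 3.14.

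The 2 members that were higher in nerve are not restricted to oligodendrocytes. Sox10, the transcription factor of both kinds of myelinating glia, was 128 to 260 in nerve and 78.3 to 123 in cord, a difference of 0.67 (adjusted p = 0.0149). Aspa, which cleaves N-acetylaspartate, was 103 to 163 in nerve and 57.6 to 102 in cord, a difference of 0.65 (adjusted p = 0.00236). With the deposited scaling neither was called (adjusted p = 0.29 and 0.504), and Sox10 was also not called without the 2 Naive pairs (adjusted p = 0.0744), without the 2 Naive+ GPN pairs (adjusted p = 0.054) or in the 3 pairs with the lowest GAPDH ratio (adjusted p = 0.0624), nor Aspa in the last (adjusted p = 0.114).

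The 250 bases before the start of Mobp, the myelin gene with the largest difference, are shown for a run of short repeats that carry the letters ACAAAG of the SOX family, here read on the other strand as the capitals. They lie at chr8:128746982-128747231 on the plus strand (RefSeq, GRCr8).
Mobp: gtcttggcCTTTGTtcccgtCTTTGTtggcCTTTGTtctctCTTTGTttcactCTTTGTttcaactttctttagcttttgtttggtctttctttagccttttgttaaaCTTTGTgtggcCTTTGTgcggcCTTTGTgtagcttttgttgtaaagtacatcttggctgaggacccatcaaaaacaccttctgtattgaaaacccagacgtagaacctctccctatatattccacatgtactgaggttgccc
It holds 8 matches to ACAAAG or ACAATG on either strand, beginning between 242 and 120 bases before the start, and none to the EGR letters. Of all 33469 promoters, 25.3% hold at least 1 such SOX match, and Prx, Scn7a, Pmp22, Egr2 and the central myelin gene Cldn11 hold none, while Cntf and Aspa hold 1 and Klk6 holds 2. The 8 matches lie in 1 repeated stretch and are not independent of each other.

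Genes listed as myelin genes of both glia were split. Of 14 tested, 4 were higher in nerve and 7 lower, with a median of -0.55, or -1.10 over all their probe sets. The share higher, 28.6%, is near the 32.6% of all genes, and the share lower was 50%, against 24.6%. Mbp, the basic protein that compacts myelin in both tissues, held the top rank of its array in all 6 cord pools and in 3 nerve pools. Its signal was 4334 to 5556 in nerve and 5556 in each cord pool, a difference of -0.14 that did not pass (SE 0.1, adjusted p = 0.23), and the top of the scale limits it. Of its 3 kept probe sets, 2 were lower in nerve. Ugt8, which makes the myelin lipid galactosylceramide, did not pass either (-0.05).

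Mag, an adhesion protein next to the axon, was 187 to 376 in nerve and 1231 to 1441 in cord, a difference of -2.34 (adjusted p = 1.46e-07), and its 3 probe sets were all lower. Cnp, an enzyme of the myelin cytoplasm, fell by 1.28. Enpp6, a choline phosphodiesterase of newly formed oligodendrocytes that was also in this list, fell by 3.31. Its nerve mean of 1.99 was below the pseudocount. The list's counts and median thus do not describe genes of both glia alone. Higher in nerve were Gsn (2.23), an actin-severing protein, Cryab (1.81), a small heat shock protein, Cd9 (1.41), a tetraspanin, and Mal (0.76), a raft protein of myelin. Mal ran from 1308 to 1899 in nerve and from 718 to 1095 in cord, without overlap.

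At the node of Ranvier and the paranode, where glia meet the axon, 8 of 11 genes were lower in nerve and 2 higher, with a median of -0.88. Lower were the axonal proteins Cntn1 (-3.97) and Cntnap1 (-1.92), and also Cntn2 (-1.21) and the scaffold Epb41l3 (-1.29). Ezr, an actin linker of Schwann cell microvilli, was 135 to 205 in nerve and 56.8 to 68.3 in cord, a difference of 1.32 (adjusted p = 3.33e-06). Its relative Rdx was higher by 0.43 (adjusted p = 0.00947), turned to -0.42 with the deposited scaling, and was not called without the 2 Sham pairs or in the 3 pairs with the lowest GAPDH ratio (adjusted p = 0.0848 and 0.0889).

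Astrocyte genes were lower in nerve in 17 of 20 cases and higher in 1, with a median of -1.80. Gfap, the astrocyte intermediate filament, was paired with no probe set in the annotation used here, so the list rests on other members. Aqp4, the water channel of astrocyte endfeet, was 1.52 to 41.0 in nerve with a median of 8.12, and 1067 to 1293 in cord with a median of 1254. The difference was -6.24 (SE 0.26, adjusted p = 1e-08), and the tissues lay far apart. The brain lipid-binding protein Fabp7 fell by 4.59 in nerve, Aldoc, a glycolytic aldolase, by 4.06, and the connexin Gjb6 by 4.03.

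The member higher in nerve was Vim, an intermediate filament of Schwann cells, fibroblasts and endothelium as well as of astrocytes. It was 2331 to 5126 in nerve and 472 to 620 in cord, a difference of 2.77 (adjusted p = 1.98e-08). S100b, which Schwann cells also make, did not pass (-0.15; means of 3045 in nerve and 3339 in cord).

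All 22 neuronal genes on the arrays passed the filter, and all 22 were lower in nerve, against 24.6% of all genes. Their median was -3.91. The pools of 21 did not overlap, while nerve lay below cord without overlap in 17.2% of all probe sets. Nefh, the heavy neurofilament subunit of large axons, was 1.36 to 18.6 in nerve with a median of 8.68, and 1723 to 1923 in cord with a median of 1879. The difference was -7.17 (SE 0.25, adjusted p = 2.74e-09), the largest fall of any gene under the naming rule. Snap25, which drives vesicle fusion, was 9.46 to 25.7 in nerve and 1599 to 2011 in cord (-6.45), Nefm, the medium neurofilament subunit, was 20.1 to 57.5 and 2407 to 2783 (-5.93), and Chgb, a granin of secretory vesicles, was 0.567 to 10.8 and 325 to 354 (-5.40).

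The synapse and transmitter lists held no tested gene that was higher in nerve. Lower were 18 of 20 synaptic vesicle genes (median -1.91), among them Vamp1 (-4.30) and Rab3a (-4.08). Of glutamate receptors and transporters 14 of 19 were lower (-1.18), led by the metabotropic receptor Grm3 (-4.95) and the vesicular transporter Slc17a6 (-4.82). Of GABA and glycine genes 12 of 14 were lower (-1.61), led by the vesicular transporter Slc32a1 (-4.25) and Gad1 (-3.72), which makes GABA. Of 9 cholinergic genes on the arrays only 4 were tested. Lower were 3 of them: the esterase Ache (-2.25), the vesicular transporter Slc18a3 (-2.18) and the muscarinic receptor Chrm3 (-1.01), while Chrna7 did not pass (0.01). The filter left out Chat, Isl1, Isl2, Chrna4 and Chrm2 as weak. The highest signals were 14.7 in nerve and 15.9 in cord for Chat, and 17.9 and 51.6 for Chrna4.

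Of 15 neuropeptide genes, 14 were lower in nerve (median -3.01). Sst, somatostatin, was 2.99 to 5.27 in nerve and 422 to 643 in cord (-5.80); Scg5, a chaperone of a peptide-processing protease, was at -5.12, Adcyap1, the precursor of PACAP, at -3.60 and Calca, the precursor of CGRP, at -3.36. Of 22 channel genes, 15 were lower (median -0.93), with Scn1a at -4.89, Kcnc1 at -3.69, Kcnab2 at -2.75 and Kcnab1 at -2.43. The 2 higher were Cacna1c (1.83), the L-type calcium channel of muscle and heart, and the subunit Cacnb3 (0.98), whose call was lost with the deposited scaling (adjusted p = 0.0776). Slc12a5, the chloride exporter of central neurons, was 0.558 to 2.33 in nerve, 2.00 on average in L4 DRG, and 274 to 378 in cord (-5.65).

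L4 DRG was compared with the same nerve and cord pools, so these comparisons share samples with the one above and are given side by side. The neuronal list was at a median of 0.48 for DRG minus cord, with 12 genes higher and 6 lower in DRG, and at -4.26 for nerve minus DRG, with all 22 lower in nerve (over all probe sets, DRG was higher than cord in 18.8% and lower in 19%, 37.9% in all, and nerve was higher than DRG in 29.6% and lower in 25%, 54.6% in all). These splits moved with scaling as well: DRG against cord was 3091 probe sets higher and 3126 lower, and 1242 and 6015 with the deposited scaling, 4380 and 2220 with median scaling and 4861 and 2279 with scaling within tissue. Nerve against DRG was 4862 higher and 4103 lower, and 2215 and 4751 with the deposited scaling. Nefh averaged 3366 in DRG. The central myelin list was at -3.11 for DRG minus cord, with 12 of 13 lower, and the astrocyte list at -2.04, with 18 of 20 lower.

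Peripheral myelin genes were lower in DRG than in nerve for 7 of 12. Prx was higher in nerve than DRG by 1.70 (adjusted p = 6.2e-07), Cntf by 1.94 (adjusted p = 1.14e-07) and Egr2 by 1.85 (adjusted p = 7.46e-07), whereas Scn7a differed by 0.01 (adjusted p = 0.953). Gfra3 and Ngfr were lower in nerve than in DRG, by -1.64 and -1.27. For Scn7a the means were 538 in nerve and 534 in DRG.

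**Figure D2:**
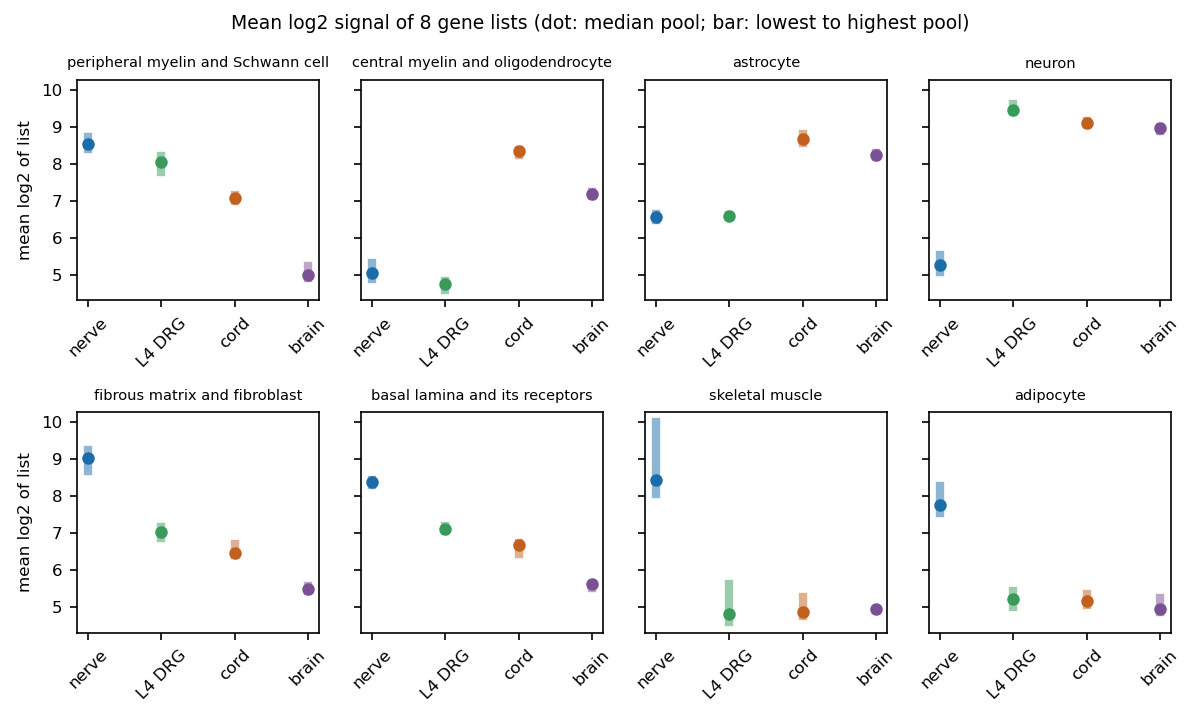
Mean log2 signal of 8 gene lists in sciatic nerve (6 pools), L4 DRG (6), spinal cord (6) and brain (3); dots are the median pool and bars run from the lowest to the highest pool. The neuron list is low in nerve alone (median 5.25, against 9.47 in L4 DRG and 9.10 in cord), the central myelin and astrocyte lists are low in nerve and L4 DRG, and the peripheral myelin list falls from nerve (8.55) through L4 DRG (8.05) and cord (7.08) to brain (4.98).

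The genes of connective tissue were higher in nerve. Of 32 fibrous matrix and fibroblast genes, 30 were higher and 2 lower, with a median of 2.80. Col3a1, a fibrillar collagen, was 4049 to 5657 in nerve with a median of 4718, and 220 to 377 in cord with a median of 315. The difference was 3.97 (SE 0.09, adjusted p = 3.21e-10), and its 4 probe sets were all higher. Postn, a matricellular protein, was higher by 4.52 and spread widely in nerve, from 81.2 to 612.

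Thbs4, a thrombospondin of tendon and nerve, was 579 to 771 in nerve and 22.1 to 56.4 in cord (4.07), and Mfap5, a microfibril protein, was 232 to 567 and 5.00 to 33.8 (4.04). The 2 lower genes were Fbln1 (-0.56), a fibulin, and Sparc (-2.02), a matrix glycoprotein also made by central glia. For Sparc the call depends on the probe set: the brightest was lower in nerve, the other 6 kept probe sets were higher, and the mean over all 7 was 1.70.

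Of 19 genes of the basal lamina and its receptors, 16 were higher in nerve and none was lower by the test, with a median of 2.04. Lama2, the laminin chain of Schwann cell and muscle basal lamina, was 350 to 531 in nerve and 13.9 to 45.2 in cord (difference 3.42, adjusted p = 8.7e-09). The collagen IV chains Col4a1 and Col4a2 were higher by 2.76 and 2.65. Of 8 genes of the central matrix, 6 were lower in nerve (median -1.39, or -0.59 over all their probe sets), among them the lectican Bcan (-3.15), the proteoglycan Cspg5 (-2.49), the receptor Ptprz1 (-2.49) and the synaptic adhesion gene Nrxn3 (-2.22).

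Immune genes were mixed. Of 18 microglia and macrophage genes, 10 were higher in nerve and 4 lower, with a median of 0.59 that was -0.10 with the deposited scaling. The share higher was 55.6%, against 32.6% of all genes, and the share lower, 22.2%, is near the 24.6% of all genes. Cd163, a scavenger receptor of resident macrophages, was 49.1 to 106 in nerve and 3.28 to 15.6 in cord (2.54, adjusted p = 7.66e-07). Gpnmb, a lysosomal glycoprotein, Mrc1, the mannose receptor, and Lyz2, lysozyme, were higher by 2.26, 2.16 and 2.11.

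Lower in nerve were Ctss (-1.49), a protease of lysosomes, and Cx3cr1 (-0.71) and P2ry12 (-0.55), receptors used as microglial markers, with Fcgr3a (-0.63), an IgG receptor. Ctss was 242 to 670 in nerve and 1081 to 1324 in cord, while the pools of the other 3 overlapped. Those 3 calls were lost under some alternatives: in the 3 pairs with the lowest GAPDH ratio Cx3cr1 had an adjusted p of 0.232 and Fcgr3a of 0.31, without the 2 Sham pairs they had 0.063 and 0.112, and P2ry12 had 0.0513 without the 2 Naive pairs and 0.0524 without the 2 Naive+ GPN pairs. Fcgr3a was also not called without the 2 Naive pairs (adjusted p = 0.232), without either single Naive pair or either single Sham pair (0.0525 to 0.086), or on the mean of both sides (0.0756).

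Antigen presentation by MHC class II was higher in 6 of 10 genes and lower in none, with a median of 0.78, or 1.42 over all their probe sets. Cd74, the invariant chain, was 565 to 1043 in nerve and 47.8 to 118 in cord (3.20, adjusted p = 3.19e-09), although 1 of its 6 probe sets was lower. RT1-Da, RT1-Bb and RT1-Ba followed at 1.87, 1.55 and 0.96, the last not called with the deposited scaling (adjusted p = 0.0743). Of 11 mast cell genes on the arrays only 5 were tested, and 3 of them, all proteases, were higher. Cpa3 was 36.4 to 208 in nerve and 2.84 to 9.86 in cord (3.09). Cma1 was 126 to 250 and 18.1 to 55.2 (2.55), and Tpsab1 51.3 to 69.8 and 12.6 to 41.6 (1.36). Tpsb2 (0.02) and Srgn (0.36) did not pass. The filter left out Kit, Ms4a2, Fcer1a, Hdc, Mcpt1 and Mcpt4 as weak. The highest signals were 15.0 in nerve and 20.5 in cord for Kit, and 25.05 and 3.66 for Hdc.

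Complement genes went both ways, with 10 of 21 higher and 3 lower and a median of 0.35, or -0.44 with the deposited scaling and 0.62 over all their probe sets. Higher were Cfd, given with the fat genes, the proteases C1s (3.82) and C1r (2.61) that start the classical pathway, and their inhibitor Serping1 (2.43). C1s was 267 to 815 in nerve and 26.6 to 33.9 in cord. Lower were C3 (-2.05), the central component, which was 2.98 to 31.6 in nerve and 64.1 to 107 in cord, and the regulators Clu (-1.42) and Cd59b (-0.50), the latter turning to 0.21 with median scaling and 0.26 with scaling within tissue.

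Of 21 endothelial and barrier genes, 11 were higher in nerve and 1 lower, with a median of 0.43 that was -0.10 with the deposited scaling. Higher were Cldn1 (2.91), a tight junction protein of the perineurium, Podxl (2.22), Kdr (1.95), the main VEGF receptor, and Pecam1 (1.40). The lower gene was Slco1c1, the thyroid hormone transporter of brain vessels and astrocytes, at 0.833 to 6.11 in nerve and 136 to 190 in cord (-4.24, adjusted p = 5.03e-09).

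Of 11 smooth muscle and pericyte genes, 7 were higher (median 1.47), with Des at 3.76, Tpm2 at 3.10, Acta2 at 2.69 and Tagln at 2.22. Des and Tpm2 are also made by skeletal muscle. Haemoglobin genes were lower in nerve, Hbb-b1 by a difference of -1.29, Hbb of -0.98 and Hba-a1 of -0.79. With median scaling and with scaling within tissue, the calls for Hbb (adjusted p = 0.168 and 0.05) and Hba-a1 (adjusted p = 0.48 and 0.239) were lost. Hba-a1 held the top rank of its array in all 6 cord pools, which limits its difference. Alas2, the first enzyme of red cell haem synthesis, fell by 1.21, and Pf4, a platelet chemokine, was higher by 1.74. The summed signal of the 9 blood cell genes was 4631 to 8983 in nerve and 11540 to 13600 in cord.

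Skeletal muscle genes were mostly higher in nerve. Of 27 tested, 24 were higher and 1, Myh1, was lower (-1.13), and the median was 4.75. Over all 42 kept probe sets of these genes the median was 2.81. Myh4, the fast IIB myosin heavy chain, was 2071 to 3409 in nerve and 3.18 to 23.0 in cord (7.45, adjusted p = 9.21e-10). Ckm, muscle creatine kinase, was 946 to 6632 in nerve with a median of 2192, and 8.08 to 54.3 in cord (6.47, SE 0.31). Ckm thus varied widely among nerve pools, and none overlapped with cord.

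The summed signal of the 27 muscle genes was 36940 and 59840 in the ipsilateral and contralateral Naive nerve pools and 16150 to 21490 in the other 4 nerve pools. It was 1231 to 1644 in cord, 1219 to 2068 in L4 DRG and 1500 to 1635 in brain. The Naive nerve pools thus carried the most, and every nerve pool carried more than any of these cord, L4 DRG and brain pools. Without the 2 Naive pairs the list's median was 4.29. The part of muscle RNA in the other differences was not tested.

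Fat genes were higher in nerve in 13 of 14 cases and lower in 1, with a median of 2.20. Fabp4, the fatty acid carrier of adipocytes, was 438 to 1124 in nerve and 0.675 to 1.80 in cord (6.43, adjusted p = 7.94e-10). Cfd, the adipocyte protease adipsin, was 826 to 2149 in nerve and 4.18 to 26.4 in cord (6.53), Adipoq, adiponectin, was higher by 5.71, and Lpl, lipoprotein lipase, by 4.13. The lower gene was Lep (-0.66), leptin, not called with median scaling or with scaling within tissue (adjusted p = 0.45 and 0.53) or in the 3 pairs with the lowest GAPDH ratio (adjusted p = 0.191). The summed signal of the 14 genes was 3848 to 6961 in nerve and 1017 to 1323 in cord, and was highest in the 2 Sham nerve pools.

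**Figure D3:**
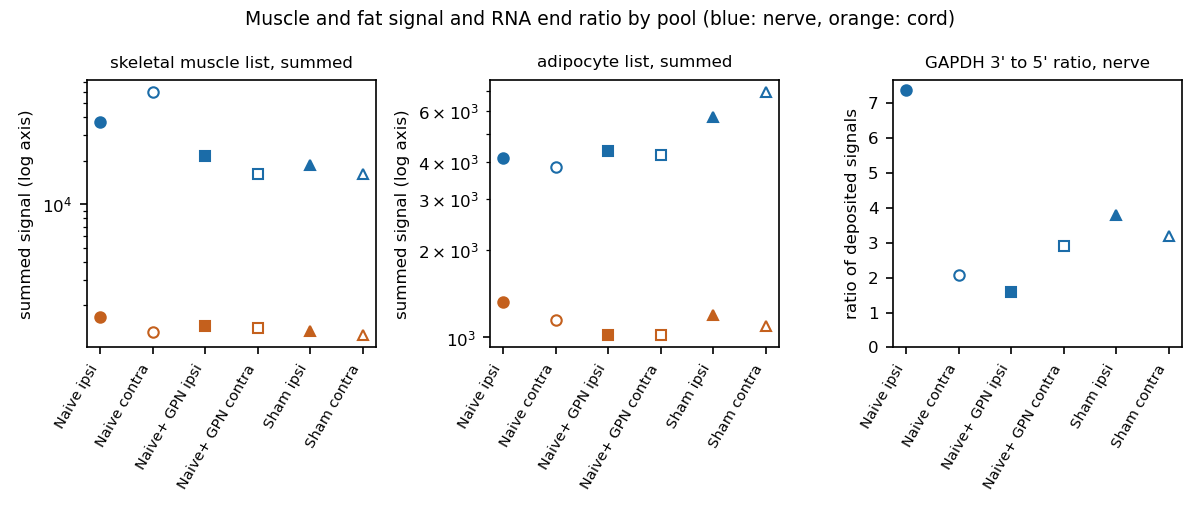
Summed signal of the 27 skeletal muscle genes and of the 14 adipocyte genes (log axes) in each nerve pool (blue) and cord pool (orange), and the ratio of the 3′ to the 5′ GAPDH probe set on array A in each nerve pool. Muscle signal is highest in the 2 Naive nerve pools (36940 and 59840), fat signal in the 2 Sham nerve pools (5707 and 6961), and the ratio in the Naive ipsilateral nerve pool (7.38).

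Lipid synthesis genes went both ways, in shares not far from those of all genes. Of 14 fatty acid genes 6 were higher and 5 lower (median 0.03), and of 18 cholesterol genes 5 were higher and 5 lower (-0.12, or 0.29 with median scaling). Scd, a desaturase, was higher by 0.96, Acaca, the first enzyme of fatty acid synthesis, by 0.90 and Elovl6 by 0.81, the last 2 not called with the deposited scaling (adjusted p = 0.743 and 0.172). Acsbg1, an acyl-CoA synthetase of brain, fell by 2.96. Among cholesterol genes Hsd17b7 (-0.99) and Dhcr7 (-0.64) were lower; Dhcr7 was not called with median scaling (adjusted p = 0.108) or with scaling within tissue (adjusted p = 0.095). Idi1 was higher by 0.77, but not without the 2 Naive pairs (adjusted p = 0.0506), without the 2 Sham pairs (0.0976) or in the 3 pairs with the lowest GAPDH ratio (0.379).

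Ribosomal protein genes were higher in nerve in 28 of 41 cases and lower in none, with a median of 0.50, or 0.36 with the deposited scaling and 1.22 with median scaling. Rpl22 was higher by 1.16, Rplp1 by 1.02, Rpl14 by 1.00 and Rpl7 by 0.99, of which Rplp1 and Rpl7 were not called with the deposited scaling (adjusted p = 0.139 and 0.521). Respiratory chain genes were lower in 16 of 29 cases and higher in none, with a median of -0.40 that turned to 0.11 with median scaling. Cox6a1 and Cox8a, lower by -0.82 and -0.77, turned to 0.02 and 0.07 with scaling within tissue.

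Of 29 growth factor and receptor genes, 11 were higher and 8 lower (median 0.02), shares not far from those of all genes. Besides Cntf, Ntrk3 (1.99), the receptor of neurotrophin 3, Egfr (1.68) and Igf1 (1.48) were higher in nerve. Ntrk3 ran from 67.1 to 305 in nerve and 10.4 to 56.4 in cord. Lower were Nrg1 (-2.69), the axonal signal that drives Schwann cell myelination, Fgfr2 (-2.16), Fgf9 (-2.04) and Fgfr3 (-2.02).

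Of 7 connexin genes 2 were higher, Gjc1 (1.83) and Gja4 (1.32), a share of 28.6% that is near the 32.6% of all genes. Lower were 4 (57.1%, against 24.6% of all genes), Gjb6, Gja1 (-1.69), Gjb1 (-0.95) and Gja5 (-0.41). Gjb1, connexin 32, which both glia use in their myelin, was 74.1 to 151 in nerve and 158 to 226 in cord. Gja5 was not called with median scaling (adjusted p = 0.279), with scaling within tissue (0.274), without the 2 Naive pairs (0.0547), without the 2 Sham pairs (0.0558) or in the 3 pairs with the lowest GAPDH ratio (0.206), and 1 of its 2 probe sets was higher. Of 4 genes listed for ependyma and oligodendrocyte precursors (median 1.07, or 0.64 over all their probe sets), Nes (1.48), Pdgfra (1.38) and Cspg4 (0.75) were higher and Sox2 was lower (-1.12). The first 3 are also made by Schwann cells, fibroblasts or pericytes; Cspg4 was not called with the deposited scaling (adjusted p = 0.264).

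**Figure D4:**
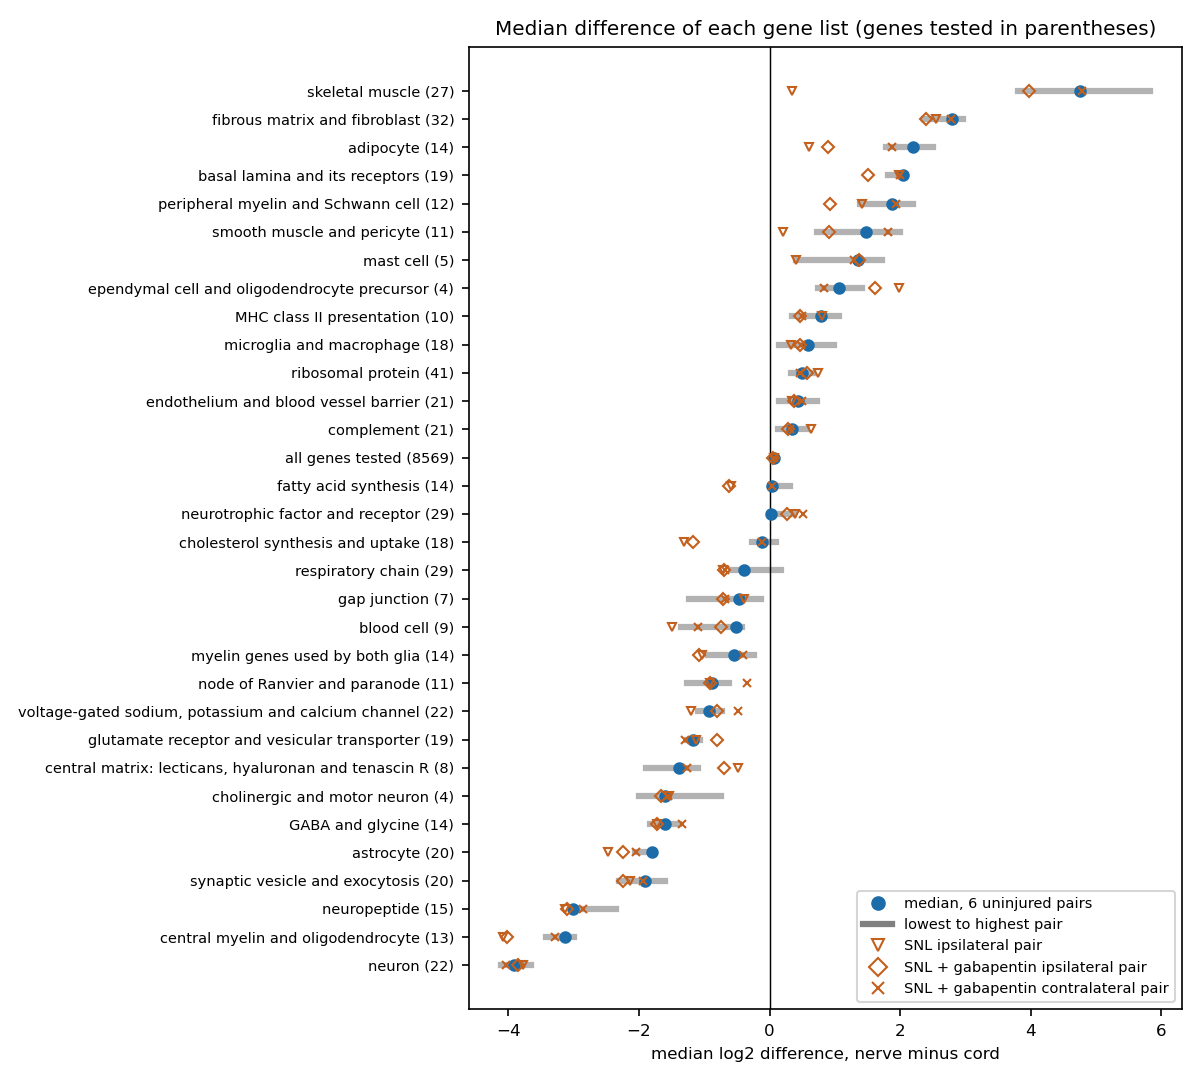
Median log2 difference, nerve minus cord, of 31 gene lists and of all genes tested (number of genes in parentheses). Blue dots are the fitted median over the 6 uninjured pairs, grey bars run from the lowest to the highest pair's own median, and orange symbols are the 3 pairs with spinal nerve ligation; with each gene at its brightest probe set, muscle, fibrous matrix, fat, basal lamina and peripheral myelin lie highest, and neurons, central myelin and neuropeptides lowest.

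The 5 genes whose log2 values over the 12 samples were most like those of Prx were S100a6, Mgll, Crip1, Cuedc2 and Pxn, with Pearson r of 0.993 to 0.996 (n = 12). These points share their pools and fall into 2 tissues, so r largely measures the step between tissues. S100a6, a calcium-binding protein, was 1700 to 2479 in nerve and 205 to 291 in cord. Mgll, which degrades the lipid 2-arachidonoylglycerol, was 956 to 1135 and 151 to 224, although 1 of its 5 probe sets was lower in nerve.

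The difference between tissues was compared between sides and among treatments. For side, 0 of 16412 probe sets passed in limma, against 1092 at an unadjusted p below 0.05 (6.65%). For treatment, 7 passed (0.0427%), with 1361 (8.29%) at an unadjusted p below 0.05. The 2 sides of a treatment served as its replicates here and may come from the same rats. A treatment can therefore not be told apart from its set of rats or their dissection. Among the 7 that passed were Ttn, the giant sarcomere protein, Tpm1, a tropomyosin, and Cox6a2 and Cox8b, respiratory subunits of muscle. Their excess in nerve was largest in the Naive pairs. The probe sets of Tpm1, Cox6a2 and Cox8b that passed are not the brightest of these genes. Ttn was 1061 and 1648 in the 2 Naive nerve pools and 148 to 254 in the other 4. The same pools hold the most muscle signal. H19, a long non-coding RNA abundant in muscle, was also highest there, with 1073 and 1899 in the Naive nerve pools and 283 to 467 in the others.

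The other 2, Alb, serum albumin, and Cdc42se2, a small effector of Cdc42, varied in cord as well. Alb was 125 and 109 in the 2 Naive cord pools and 2.68 to 14.9 in the other 4, and 6.00 to 89.5 in nerve. Cdc42se2 was 10.8 and 7.12 in the 2 Naive+ GPN cord pools and 46.4 to 74.6 in the other 4. With the deposited scaling 2 probe sets passed for treatment, and without the filter 0 did. For Prx the adjusted p was 0.729 for side and 0.721 for treatment, and for Mobp 0.729 and 0.743.

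The 3 pairs from rats with spinal nerve ligation (SNL), namely SNL ipsilateral and both sides of SNL+ GPN, come from other rats and were not used in any fit. Of the 2793 genes higher in uninjured nerve, 90.9%, 89.3% and 94.1% had the same sign in these pairs, and of the 2105 lower genes 92.3%, 90.5% and 92.7%. Among genes not called the share was 61.9% to 65.2%. Of the 603 genes at 4-fold or more, 98.7%, 99.5% and 100% had the same sign.

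Prx was 1148 and 1112 in the 2 ipsilateral ligated nerve pools and 2809 in the contralateral one, against 2878 to 4155 in uninjured nerve. Mag was 113, 115 and 301 in the same order, against 187 to 376, and Cntf 315, 377 and 1054, against 632 to 911. The ipsilateral ligated nerves were thus below the uninjured range for all 3 genes, with no replicate of either condition. Muscle signal also differed there: its sum was 2673 in SNL ipsilateral nerve, 16650 in SNL+ GPN ipsilateral nerve and 24070 in the contralateral one. In the cord of the ligated rats, Prx was 720, 810 and 781, within the uninjured range.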

How the data were processed

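RNA of 52 pools was measured on 156 Affymetrix rat U34 arrays. The deposited values are linear probe set intensity, made with MAS5 per the submitters' processing notes; the sources used here name neither its version nor its scaling, and detection calls were not used. Of 26379 probe sets, 177 were controls, 18178 had 1 gene symbol, 391 several and 7633 none; 18122 symbols were updated through the GRCr8 RefSeq gene table. The members and lists were chosen with earlier results of these data known.

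The 12 arrays of each type (A, B, C) were quantile normalized, and arrays of L4 DRG, brain and ligated rats were mapped to the same quantiles. The log2 of signal plus a pseudocount was taken, the 20th percentile of each type (5.43 for A, 4.83 for B, 6.49 for C). Probe sets above the 40th percentile of their array in at least 6 of 12 samples were kept. Tests used limma 3.58.1 (lmFit, eBayes with trend) in R 4.3.3, two-sided, with the pair of treatment and side as a block; each gene is its brightest probe set. Side and treatment were tested on the 6 paired differences of every kept probe set, and their results are given by probe set. Methods were tested on simulated data.

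Genes were named by a rule: the markers, the 10 largest differences each way among genes whose pools do not overlap, up to 4 per list and direction, every tested member of lists under 8, and the genes of the treatment test. A few other list members were named after their values were seen. Of 31 lists with 725 entries, 608 were on the arrays and 523 were tested. The counts given for a list cover its tested members only. For channels 34 genes were on the arrays and 22 were tested, and for complement 32 and 21. Pairs were fixed by the labels; deviations of the 2 tissues of a pair correlated at -0.048 to 0.155. No 2 arrays of a type held identical values. The number of arrays limits the precision.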

Additional observations from a re-analysis of the deposited data

Results flagged for a closer look

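Among the 183 named genes, 27 of 366 groups of 6 pools had a highest or lowest pool that stood apart from the other 5 by Dixon's criterion; chance alone does so in about 1 of 20 groups.

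In nerve, pools that stood low were Cntn2 at 19.2 (others 28.8 to 32.0) and Pecam1 at 31.4 (62.9 to 81.8) in Naive ipsilateral, Col4a1 at 786 in Naive contralateral (1008 to 1135), Cacna1c at 160 (183 to 197) and Idi1 at 246 (473 to 680) in Naive+ GPN ipsilateral, and Nrxn3 at 4.72 in Naive+ GPN contralateral (13.5 to 16.9). Pools that stood high were Fabp4 at 1124 in Sham contralateral (438 to 620), Grm3 at 10.7 in Sham ipsilateral (1.80 to 3.10) and Slco1c1 at 6.11 in Naive+ GPN contralateral (0.833 to 1.85). The Naive ipsilateral nerve pool is the one with the highest GAPDH ratio, and its part in these values was not tested. All nerve values of Slco1c1 lay below the pseudocount, as did the low pool of Nrxn3 and the other pools of Grm3. The order of such values is not reliable.

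In cord, the Naive ipsilateral pool stood low for Acta2 at 80.1 (others 121 to 152), Idi1 at 194 (282 to 350) and Ngfr at 75.1 (129 to 145), and high for Cx3cr1 at 56.2 (25.4 to 32.3), Egfr at 10.6 (3.00 to 5.16) and Srgn at 28.7 (19.2 to 21.5). The Naive contralateral pool stood high for Cd9 at 1038 (767 to 848), Col4a1 at 174 (136 to 143), Gria4 at 36.5 (19.3 to 24.7) and Mrc1 at 14.7 (5.96 to 8.40). The Naive+ GPN ipsilateral pool stood low for Cuedc2 at 26.2 (37.1 to 44.2) and Gjc1 at 3.31 (20.3 to 21.8), and high for Meox2 at 7.71 (0.933 to 1.36). The Naive+ GPN contralateral pool stood low for Cspg5 at 95.3 (130 to 156) and high for Ttn at 4.72 (0.917 to 1.32). The Sham pools stood high for Eno3 at 1.68 (0.450 to 0.871) and Pecam1 at 31.7 (17.2 to 19.7), and low for Fdft1 at 300.5 (371 to 399). All cord values of Eno3 and Ttn lay below the pseudocount, as did the low pool of Gjc1 and the other pools of Egfr and Meox2. The order of such values is not reliable.

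The difference between nerve and cord itself differed among treatments for 7 probe sets in limma: those of Alb (adjusted p = 0.011), Cox6a2 (0.0288), Ttn (0.0288), Cox8b (0.0387), Cdc42se2 (0.0402), Tpm1 (0.0441) and H19 (0.0441). Those of Cox6a2, Cox8b and Tpm1 are not the brightest of their genes. The 2 sides of a treatment were its only replicates and may share rats, so treatment cannot be told apart from the set of rats. In the 2 Naive, 2 Naive+ GPN and 2 Sham pairs, the differences on the log2 scale were -2.85 and -3.33, 2.77 and 2.56, and 2.48 and 1.16 for Alb, and 7.49 and 8.16, 4.90 and 4.76, and 4.72 and 4.74 for Ttn.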

How the results depend on the processing

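The counts of probe sets called were recomputed under other scalings, filters, pseudocounts and fits and with pairs left out. Nerve minus cord gave 9241, nerve minus L4 DRG 8965 and L4 DRG minus cord 6217, and each stayed within 1.5 times its value under every scaling, filter, pseudocount and single left-out pair. Leaving out 1 pair gave 8215 to 9114, 7820 to 8954 and 5100 to 6624. Without the replicate block the counts were 9222, 8968 and 6377. For nerve minus cord, 1 of the 183 named genes changed its call with the block: Srgn passed only without it. For nerve minus L4 DRG, Aqp4 passed only with it.

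For treatment, 7 probe sets became 2 with the deposited scaling and 0 with no filter (limma; 1811 and 1952 at an unadjusted p below 0.05), and the cause was not tested. For side the count stayed at 0 under these alternatives, with 504 and 1633 at an unadjusted p below 0.05.

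Some values turned direction, and the cause was not tested. With median scaling and with scaling within tissue, Cd59b was 0.21 and 0.26, Cox8a 0.04 and 0.07, and Cyp51 0.18 and 0.22; Cox6a1 was 0.02 with the latter. With the deposited scaling Fasn was -0.19 and Rdx -0.42. With the mean over all kept probe sets Fasn was -0.07, Fdft1 0.17, Gja5 0.77, Lss -0.20 and Sparc 1.70. For L4 DRG minus cord, Chgb was 0.06 and 0.03 with median scaling and scaling within tissue, and Snap25 0.02 with the latter. The medians of the complement, endothelial, microglia, fatty acid, cholesterol, respiratory and growth factor lists also changed sign with scaling. With the deposited scaling the medians of further lists moved by over 1.5 times with the same sign: shared myelin to -1.03, channels to -1.48, mast cell to 0.81, MHC class II to 0.39, blood cell to -1.07, gap junction to -1.10 and the precursor list to 0.66. With median scaling shared myelin moved to -0.31, the node list to -0.50 and blood cell to -0.21, and with the 60th percentile filter central matrix moved to -2.22 and blood cell to -0.89. The fatty acid median was -0.07 over all kept probe sets. Signal over background limits weak genes: values near the pseudocount have no reliable order.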
